A study of Homo sapiens with 12 samples.

Results

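The genes described here encode 9 enzymes of serine synthesis and folate-dependent one-carbon metabolism: PHGDH, PSAT1, PSPH, SHMT1, SHMT2, MTHFD1, MTHFD1L, MTHFD2, and ALDH1L2. They were taken by symbol from a table of raw RNA sequencing counts for 58735 genes, and each symbol matched 1 row. The cells were TIGK, a single line of human gingival keratinocytes immortalized by transfection with hTERT, the catalytic subunit of telomerase. All groups were kept at 48 mM glucose, a high level, in a base medium without arginine that was supplemented with growth factors including pituitary extract. The Arg groups received 500 μM L-arginine (Arg) for 24 or 48 h, and the untreated control groups received none for the same times. There were 3 libraries in each of the 4 groups, lettered A, B, and C. The methods give 3 replicates per condition from plate wells and do not say whether these were independent cultures, so the p-values measure the spread between these libraries, which may be technical.

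Serine is made from a glycolytic intermediate in 3 steps. PHGDH oxidizes 3-phosphoglycerate, PSAT1 transfers an amino group from glutamate, and PSPH removes the phosphate. The serine hydroxymethyltransferases, SHMT1 in the cytosol and SHMT2 in mitochondria, then split serine into glycine and a one-carbon unit carried on tetrahydrofolate. In mitochondria, MTHFD2 oxidizes this unit, MTHFD1L releases it as formate, and ALDH1L2 can instead oxidize it to carbon dioxide with formation of NADPH. In the cytosol, the trifunctional enzyme MTHFD1 takes formate up again for the synthesis of purines and thymidylate. Proliferating cells draw on this pathway for nucleotides, and several of its genes, including PHGDH, PSAT1, SHMT2, MTHFD2, and ALDH1L2, are known targets of ATF4, the transcription factor of the amino acid response.

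The promoters of genes whose levels moved with time in culture are shown so that their sequence can be read beside the values. Of the 9 genes, 6 had an entry in a table of RefSeq promoters (GRCh38.p14), and PSPH, SHMT2, and ALDH1L2 did not. The 3 windows shown belong to genes that changed between 24 and 48 h in the control, and none holds an exon annotated in GENCODE v44, after 13 exonic bases next to the SHMT1 start were removed. The PHGDH window is not shown, because 197 of its 250 bases are exonic in that annotation. PSAT1 and SHMT1 rose and MTHFD1L fell. Each window lies just before an annotated RefSeq start, is written 5′ to 3′ on the strand of the gene, and has the CCAAT box in capitals on either strand (ATTGG where it lies on the other strand). The PSAT1 window is chr9:78296875-78297124 on the plus strand, the SHMT1 window chr17:18363564-18363800 on the minus strand, and the MTHFD1L window chr6:150866083-150866332 on the plus strand, upstream of 1 of 4 RefSeq starts of this gene. The MTHFD1L window lies inside the gene as it was counted, which starts at chr6:150865549. A second MTHFD1L window free of exons, chr6:151006758-151007007, held none of the motifs searched and is not shown.
PSAT1: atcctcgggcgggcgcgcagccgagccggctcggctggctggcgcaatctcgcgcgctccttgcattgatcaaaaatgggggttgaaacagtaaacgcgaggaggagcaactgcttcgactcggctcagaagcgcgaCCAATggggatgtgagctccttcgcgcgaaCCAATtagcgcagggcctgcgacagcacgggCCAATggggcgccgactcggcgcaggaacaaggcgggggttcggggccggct
SHMT1: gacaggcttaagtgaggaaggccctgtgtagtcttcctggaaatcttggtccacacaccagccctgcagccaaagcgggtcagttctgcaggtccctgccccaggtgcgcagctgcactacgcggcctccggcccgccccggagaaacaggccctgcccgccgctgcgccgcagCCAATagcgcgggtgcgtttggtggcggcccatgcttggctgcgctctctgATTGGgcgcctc
MTHFD1L: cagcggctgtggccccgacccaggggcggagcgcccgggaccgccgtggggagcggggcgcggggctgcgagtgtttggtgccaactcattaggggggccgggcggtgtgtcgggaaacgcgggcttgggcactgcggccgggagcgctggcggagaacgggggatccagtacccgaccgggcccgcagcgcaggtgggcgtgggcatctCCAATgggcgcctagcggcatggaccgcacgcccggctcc

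The CCAAT box, a common element of promoters, was found in 8 of the 9 windows of 250 bases before a start that the 6 genes have, against 32.01% of 35116 windows of that length in the table. PSAT1 had 3 copies, at 113, 83, and 52 bases before the start, and SHMT1 had 2, at 76 and 25 bases before its RefSeq start. The E-box CACGTG was found in 3 of the 9 windows, 1 of MTHFD1 and 2 of MTHFD1L (6.345% of all windows), and the core TGATGNAA of the C/EBP-ATF element in the same 2 windows of MTHFD1L (3.144% of all windows). These 2 windows belong to other MTHFD1L starts, and the sequence printed above holds neither element. The MTHFD1L windows at 3 of its starts overlap one another, so they hold the same CCAAT box, and the matches in them are not separate sites. Both strands were searched, and no letters were shared between motif matches. These matches are letters in the reference sequence, and binding was not measured.

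The libraries held between 16542243 and 19040964 counts. Keratinocyte markers defined the cells at both times: 9 of 9 were above 1 CPM (counts scaled to a common library size with TMM over the 12 libraries), and they summed to between 43150 and 55090 CPM. Control replicate B at 48 h stood apart from replicates A and C, with a chi-square per degree of freedom of 20.88 and 23.92 against 3.655 between A and C, and 1.548% of its counts were mitochondrially encoded against 0.9063% and 0.7069%. The 24 h groups were uneven too, to a lesser degree. Control replicate B had 12.34 and 12.55 against 6.537 between A and C. Arg replicate A had 12.4 and 10.88 against 5.413 between B and C. All 9 enzymes passed the filter on low counts in every comparison.

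On a scale per length (TPM, from the counts and gene lengths in the table), the enzymes kept nearly the same order in every library. This order depends on the lengths used, 2188 bases for PSAT1 against 9217 for PHGDH and 9377 for MTHFD1. In CPM, PSAT1 averaged 180.4 in the 24 h control, close to PHGDH at 184.2. It was then below MTHFD2 at 230.2, SHMT2 at 268.6, and MTHFD1 at 276.4 CPM. PSAT1 was the highest in 12 of 12 libraries, with 296 TPM in the 24 h control (range 277.5 to 312.1), followed by SHMT2 at 199 TPM, MTHFD2 at 169.4 TPM, and MTHFD1 at 105.7 TPM. PSPH at 77.34 TPM, PHGDH at 71.84 TPM, and MTHFD1L at 65.99 TPM came next and had overlapping ranges, so their order is not resolved in that group. SHMT1 stood at 38.68 TPM, and ALDH1L2 was the lowest in 12 of 12 libraries with 3.411 TPM (range 3.025 to 3.697). The level of PHGDH per length reached 114.8 TPM in the 48 h control, where it overlapped MTHFD1 at 113.2 TPM. In the 48 h Arg libraries PHGDH was at 112.4 TPM, below MTHFD1 at 122.1 TPM without overlap.

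**Figure D1:**
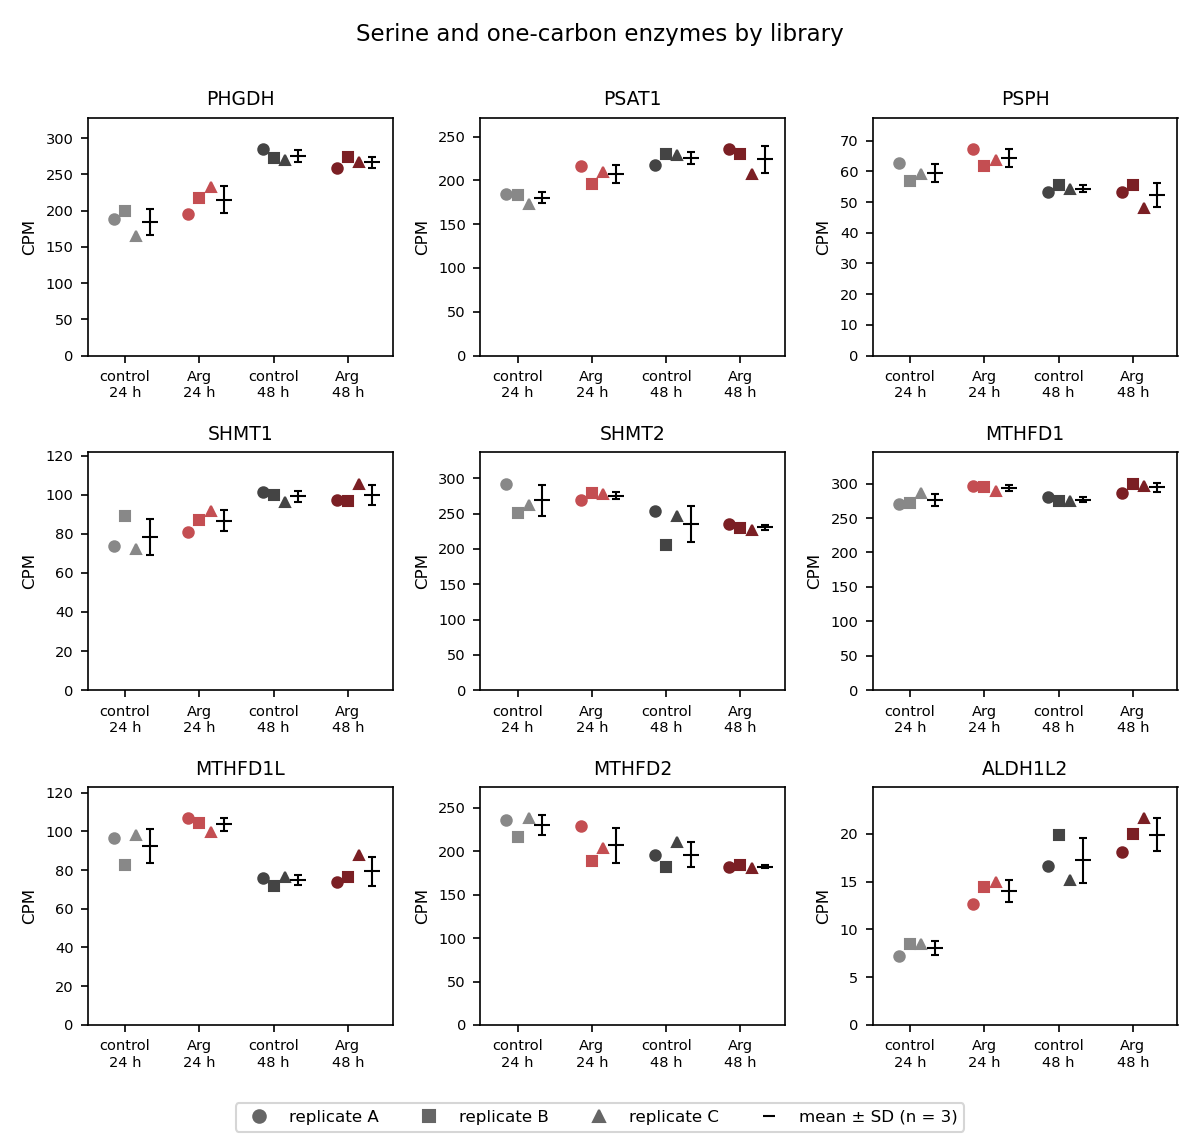
Levels of the 9 enzymes in each library. The y axis of each panel is CPM from 0, the x axis gives the 4 groups, symbols mark replicates A, B, and C, and the bar beside them is the mean with SD (n = 3). The 24 h Arg libraries of ALDH1L2 lie between 12.7 and 14.94 CPM, above the 24 h control libraries at 7.259 to 8.517 CPM, and PHGDH and ALDH1L2 are higher at 48 h in both control and Arg.

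The first question was which of these enzymes differed between Arg-treated and untreated TIGK cells. After 24 h, ALDH1L2 was upregulated with Arg, and the other 8 enzymes did not pass the test. The mitochondrial enzyme ALDH1L2 measured 7.259, 8.472, and 8.517 CPM in the control and 12.7, 14.44, and 14.94 CPM with Arg (8.083 ± 0.7135 against 14.03 ± 1.177 CPM, mean ± SD, n = 3). All Arg libraries were above all control libraries. The log2 fold change was 0.79 (SE 0.151), or 1.735-fold, with an adjusted p of 0.0044 in edgeR's quasi-likelihood test. These levels rest on 134 to 150 counts per control library and 226 to 278 counts per Arg library. In bulk RNA, more cells with the transcript and more of it per cell cannot be told apart.

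Among all genes tested at 24 h, 2.79% were called higher and 3.84% lower with Arg at an adjusted p under 0.05, so 1 of 9 enzymes called higher is to be read against that background. At an unadjusted p under 0.05, 3 of the 9 enzymes passed, where 22.8% of all genes did. Of the 9 enzymes, 8 had a log2 fold change above 0, against 50.5% of all genes, and the median over the 9 was 0.145, the value of SHMT1, against 0.003 over all genes. For 4 of them, PSAT1, MTHFD1, MTHFD1L, and ALDH1L2, every Arg library was above every control library, while 26.2% of all genes did not overlap in one direction or the other.

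The first step of serine synthesis gave smaller differences at 24 h. PHGDH measured 188.1, 199.5, and 165 CPM in the control and 195.4, 217.3, and 232.9 CPM with Arg, and the groups overlapped because 1 Arg library lay below the highest control. Its log2 fold change was 0.22 (SE 0.0888), with an unadjusted p of 0.0221 in edgeR's quasi-likelihood test over 6 libraries and an adjusted p of 0.141. PSAT1, the second enzyme, measured 184, 183.9, and 173.1 CPM in the control and 216.8, 196.2, and 209.6 CPM with Arg. These groups were apart, with a log2 fold change of 0.20 (SE 0.0768) and an adjusted p of 0.126 in edgeR's quasi-likelihood test. PSPH, the last enzyme of the route, lay between 56.76 and 62.73 CPM in the control and between 61.68 and 67.38 CPM with Arg, with a log2 fold change of 0.11 and an adjusted p of 0.497 in the same edgeR test.

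The serine hydroxymethyltransferases overlapped between Arg and control at 24 h. Cytosolic SHMT1 averaged 78.29 ± 9.276 CPM in the control and 86.64 ± 5.366 CPM with Arg, a log2 fold change of 0.15 with a 95% interval from -0.05 to 0.35. Mitochondrial SHMT2 averaged 268.6 ± 21.74 and 275.5 ± 4.864 CPM, a log2 fold change of 0.04 with an interval from -0.13 to 0.20. Their adjusted p-values in edgeR's quasi-likelihood test were 0.387 and 0.834.

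The folate enzymes other than ALDH1L2 also missed the threshold at 24 h. MTHFD1 measured 270.7, 272.3, and 286.2 CPM in the control and 297.1, 295.5, and 289.3 CPM with Arg, apart by little, with a log2 fold change of 0.09 and an adjusted p of 0.505 in edgeR's quasi-likelihood test. MTHFD1L, the mitochondrial formate-releasing enzyme, measured 96.81, 82.46, and 98.27 CPM against 106.8, 104.3, and 99.81 CPM, with a log2 fold change of 0.16 and an adjusted p of 0.289 in that test. MTHFD2 was the only enzyme with a value below 0. It measured 235.5, 216.9, and 238.1 CPM in the control and 228.9, 188.3, and 203.6 CPM with Arg, and the groups overlapped (log2 fold change -0.15, edgeR adjusted p 0.292).

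After 48 h, none of the 9 enzymes passed the test, at either an adjusted or an unadjusted p under 0.05 in edgeR's quasi-likelihood test, and DESeq2 likewise called 0 of 9 at an adjusted p under 0.05. Among all genes, 0.117% were called at an adjusted p under 0.05 in either direction and 13.4% at an unadjusted p under 0.05. ALDH1L2 measured 16.63, 19.87, and 15.23 CPM in the control and 18.15, 20, and 21.65 CPM with Arg. The groups overlapped through control replicate B, the library that stood apart, and the log2 fold change was 0.20 (SE 0.129, 95% interval -0.07 to 0.48), with an adjusted p of 0.52 in edgeR's quasi-likelihood test. This value moved with single libraries: it was 0.32 without that library (edgeR adjusted p 0.071), 0.12 without control replicate C (edgeR adjusted p 0.88), and 0.14 without Arg replicate C (edgeR adjusted p 0.786). Without control replicate B, the calls among all genes went from 17 to 2365, and still 0 of 9 enzymes were called.

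The 3 serine synthesis enzymes overlapped between Arg and control at 48 h. PHGDH measured 285.4, 272.3, and 269.6 CPM in the control and 258.9, 273.5, and 267.4 CPM with Arg, a log2 fold change of -0.05 with a 95% interval from -0.18 to 0.08. PSAT1 averaged 225.4 ± 7.099 and 224.3 ± 15.28 CPM (95% interval of the log2 fold change -0.16 to 0.14), and PSPH 54.32 ± 1.18 and 52.32 ± 3.859 CPM (-0.23 to 0.12). SHMT1 averaged 99.17 ± 2.699 CPM in the control and 99.92 ± 4.99 CPM with Arg, with a log2 fold change of 0.01 (95% interval -0.14 to 0.15). SHMT2 measured 253.9, 205.8, and 246.9 CPM in the control, the low value being that of replicate B, and 234.7, 229.9, and 226.5 CPM with Arg.

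MTHFD1 was the only enzyme whose groups did not overlap at 48 h, with 281.1, 274.6, and 274.2 CPM in the control and 286.8, 300.1, and 296.4 CPM with Arg, where 17.1% of all genes did not overlap. Its log2 fold change was 0.09 at both times, and its edgeR adjusted p at 48 h was 0.537. MTHFD2 measured 195.2, 181.9, and 210.9 CPM in the control and 182.4, 184.4, and 180.5 CPM with Arg, and its log2 fold change was again below 0, at -0.11 with an edgeR adjusted p of 0.524. MTHFD1L measured 76.12, 71.84, and 76.19 CPM in the control and 73.85, 76.57, and 87.93 CPM with Arg. The median log2 fold change of the 9 enzymes at 48 h was -0.0095, against 0.0018 over all genes.

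**Figure D2:**
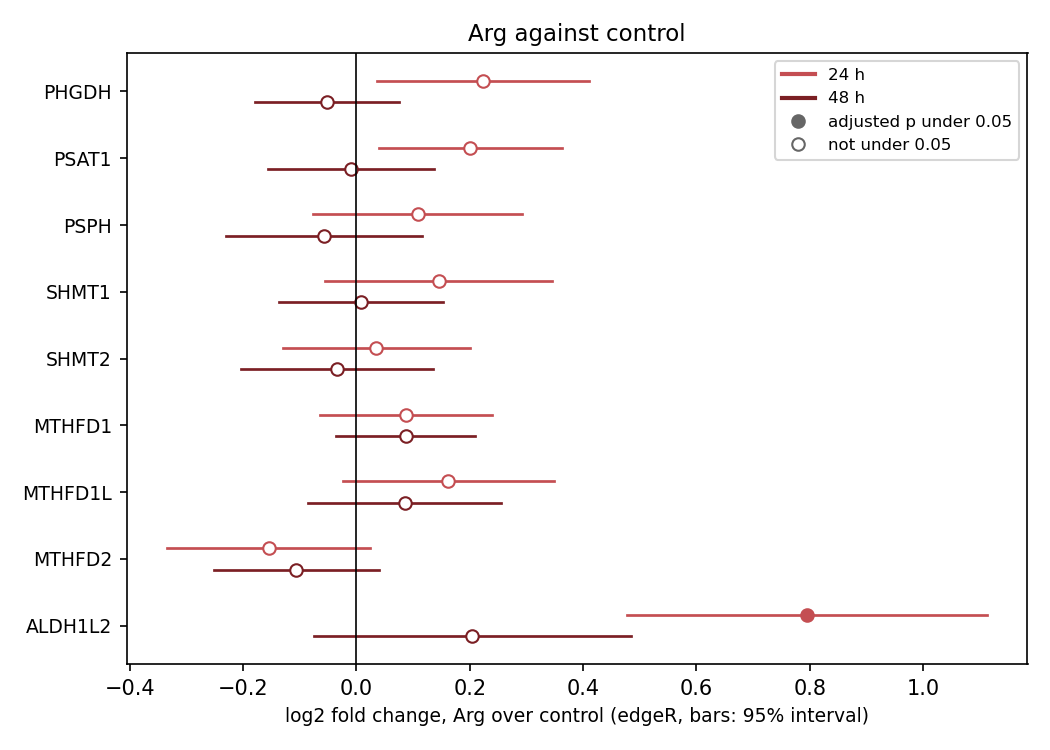
Arg against control for each enzyme at 24 and 48 h. The x axis is the log2 fold change (Arg over control) with its 95% interval, and filled circles mark an adjusted p under 0.05 in edgeR's quasi-likelihood test. Only ALDH1L2 at 24 h, at 0.79, is filled.

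Whether the Arg effect itself changed between 24 and 48 h was tested by the interaction term of treatment and time, fitted to the 12 libraries together. None of the 9 enzymes passed at an adjusted p under 0.05, where 0.0132% of all genes did. At an unadjusted p under 0.05, 3 of 9 passed, against 6.87% of all genes: ALDH1L2, PHGDH, and PSAT1. For ALDH1L2, the log2 effect of Arg was smaller at 48 h than at 24 h by a difference of -0.59 (SE 0.191), with an unadjusted p of 0.00596 in edgeR's quasi-likelihood test over 12 libraries and an adjusted p of 0.571. For PHGDH the difference was -0.27 and for PSAT1 -0.21, with edgeR adjusted p-values of 0.652 and 0.713. It was -0.16 for PSPH, -0.14 for SHMT1, -0.068 for SHMT2, 0.0010 for MTHFD1, -0.076 for MTHFD1L, and 0.050 for MTHFD2. Their edgeR adjusted p-values lay between 0.842 and 0.999. DESeq2 also called 0 of 9 at an adjusted p under 0.05. A difference in the Arg effect between the times was therefore not established for any enzyme, and these values share their libraries with the comparisons at each time.

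The second question was how the enzymes changed between 24 and 48 h in culture, first in the untreated control. PHGDH, PSAT1, SHMT1, and ALDH1L2 rose and MTHFD1L fell, so that 4 of 9 were called higher and 1 of 9 lower, where 9.9% of all genes were called higher and 10% lower. The 24 h control libraries also enter the Arg comparison at 24 h, so the values of these comparisons are not independent.

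ALDH1L2 had the largest change among the 9 enzymes. It went from 7.259, 8.472, and 8.517 CPM at 24 h to 16.63, 19.87, and 15.23 CPM at 48 h, and all later libraries were higher. The log2 fold change was 1.10 (SE 0.153), or 2.138-fold, with an adjusted p of 0.00186 in edgeR's quasi-likelihood test. PHGDH went from 184.2 ± 17.58 to 275.8 ± 8.482 CPM, a log2 fold change of 0.59 (SE 0.0814) or 1.5-fold, with an adjusted p of 0.00186 in the same edgeR test. No PHGDH library at 24 h, the highest being 199.5 CPM, reached the lowest 48 h value of 269.6 CPM.

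PSAT1 went from 180.4 ± 6.271 to 225.4 ± 7.099 CPM (log2 fold change 0.32, SE 0.0696, edgeR adjusted p 0.00905), and SHMT1 from 78.29 ± 9.276 to 99.17 ± 2.699 CPM (log2 fold change 0.34, SE 0.0922, edgeR adjusted p 0.0228). MTHFD1L went from 92.51 ± 8.737 to 74.72 ± 2.491 CPM, a log2 fold change of -0.31 (SE 0.0874) with an edgeR adjusted p of 0.0299. All 3 genes were apart in every library between the times. The share of all genes apart between the times was not computed, in control or with Arg. These separations therefore have no background to be read against. Their calls depended on single control libraries. PSAT1 had an edgeR adjusted p of 0.0586 without 24 h replicate C. SHMT1 had 0.116 without 24 h replicate A, 0.115 without 24 h replicate C, and 0.0764 without 48 h replicate A. MTHFD1L had between 0.0511 and 0.129 without any one of 24 h replicates A and C and 48 h replicates A, B, and C. The number of enzymes called, 5 in all, was 3 without 24 h replicate A, 2 without 24 h replicate C, and 3 without 48 h replicate A.

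The other 4 enzymes were not called in the control. MTHFD2 measured 235.5, 216.9, and 238.1 CPM at 24 h and 195.2, 181.9, and 210.9 CPM at 48 h. These groups did not overlap, and the log2 fold change was -0.23 with an edgeR adjusted p of 0.0577, or 0.0334 with DESeq2, 0.0452 when no low-count filter was applied, 0.0349 in a joint fit of the 12 libraries, and 0.0318 in edgeR without 24 h replicate B. PSPH averaged 59.57 ± 3.002 CPM at 24 h and 54.32 ± 1.18 CPM at 48 h, and its groups did not overlap either (log2 fold change -0.13, edgeR adjusted p 0.283). SHMT2 overlapped, with 268.6 ± 21.74 and 235.5 ± 25.95 CPM, and MTHFD1 averaged 276.4 ± 8.496 and 276.6 ± 3.862 CPM, with a 95% interval of its log2 fold change from -0.14 to 0.15.

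In the Arg-treated cells, PHGDH, SHMT1, and ALDH1L2 rose and PSPH, SHMT2, and MTHFD1L fell between 24 and 48 h. This is 3 of 9 in each direction, where 14.3% of all genes were called higher and 14% lower. The libraries are distinct from those of the control, and the difference between the control and Arg changes is the interaction given above, which passed for none of the enzymes.

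ALDH1L2 went from 14.03 ± 1.177 to 19.93 ± 1.752 CPM, a log2 fold change of 0.51 (SE 0.121) with an adjusted p of 0.00391 in edgeR's quasi-likelihood test, and PHGDH from 215.2 ± 18.81 to 266.6 ± 7.346 CPM, with 0.31 (SE 0.0713) and 0.00286. In both genes every 48 h library was above every 24 h library, again with no share of all genes to set beside it. SHMT1 measured 81.09, 87.02, and 91.8 CPM at 24 h and 97.47, 96.63, and 105.7 CPM at 48 h, with a log2 fold change of 0.21 (SE 0.0758) and an edgeR adjusted p of 0.0475. That call was lost at 0.114 without 24 h replicate A, 0.0794 without 24 h replicate B, 0.0889, 0.0846, and 0.189 without 48 h replicate A, B, or C, 0.0645 when no low-count filter was applied, and 0.0872 in a joint fit of the 12 libraries.

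MTHFD1L fell from 103.6 ± 3.555 to 79.45 ± 7.47 CPM (log2 fold change -0.38, SE 0.0786), with an adjusted p of 0.00113 in edgeR's quasi-likelihood test. SHMT2 measured 269.9, 278.8, and 277.8 CPM at 24 h and 234.7, 229.9, and 226.5 CPM at 48 h, narrow ranges that were well apart (log2 fold change -0.26, SE 0.063, edgeR adjusted p 0.00463). PSPH measured 67.38, 61.68, and 63.74 CPM at 24 h and 53.46, 55.49, and 48.02 CPM at 48 h (log2 fold change -0.30, SE 0.0831, edgeR adjusted p 0.0116, or 0.0756 without 48 h replicate C). PSAT1, at 207.5 ± 10.44 and 224.3 ± 15.28 CPM, and MTHFD1, at 294 ± 4.102 and 294.4 ± 6.865 CPM, overlapped. MTHFD2 did not overlap, with 206.9 ± 20.49 and 182.4 ± 1.992 CPM, and had a log2 fold change of -0.18 with an edgeR adjusted p of 0.073, or 0.0231 without 24 h replicate B.

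**Figure D3:**
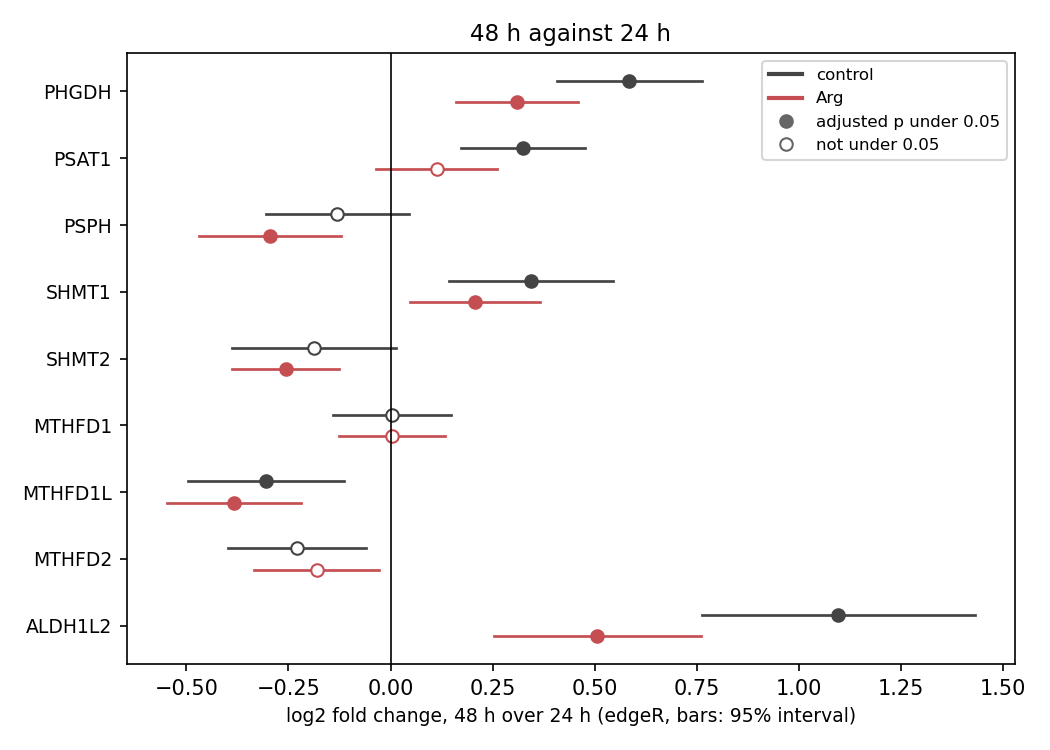
Change between 24 and 48 h for each enzyme in the control and with Arg. The x axis is the log2 fold change (48 h over 24 h) with its 95% interval, and filled circles mark an adjusted p under 0.05 in edgeR's quasi-likelihood test. PHGDH, SHMT1, and ALDH1L2 lie above 0 and MTHFD1L below 0 with filled circles in both conditions, and MTHFD1 lies near 0, at 0.0043 and 0.0032.

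Other measures moved between the same groups. Mitochondrially encoded transcripts took 1.197% to 1.296% of the counts in the 24 h control and 0.6238% to 0.8021% in the 24 h Arg libraries. At 48 h the share was 0.7069% to 1.548% in the control and 1.135% to 1.307% with Arg. Every 48 h Arg library was thus above every 24 h Arg library, while the control overlapped between the times. The summed level of 6 fibroblast markers was 30.23 to 54.39 CPM in the 24 h libraries and 72.61 to 102.5 CPM in the 48 h libraries, mostly DCN and COL1A1, while COL1A2 averaged 0.009267 CPM and PDGFRA 0.05556 CPM over all libraries. The 4 melanocyte markers summed to at most 3.056 CPM, with TYR at 0 counts, the 3 endothelial markers to at most 2.131 CPM, and the 4 leukocyte markers to at most 3.567 CPM. The part of the mitochondrial share and of the fibroblast markers in the changes above was not tested.

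Reads from overlapping genes bear on a few of the enzymes, because the strand setting of the counting is not given in the sources used here. ALDH1L2 lies at chr12:105019784-105084577 and shares 145 of 9493 exonic bases (GENCODE v44) with C12orf45 on the opposite strand, which had 4649 counts over all libraries against 3227 for ALDH1L2. The log2 fold change of C12orf45 was 0.11 with Arg at 24 h (edgeR adjusted p 0.644), and it fell by 0.60 on the log2 scale between 24 and 48 h in the control (edgeR adjusted p 0.0209), where ALDH1L2 rose. With Arg at 48 h C12orf45 had a log2 fold change of 0.44 (edgeR adjusted p 0.21), beside 0.20 for ALDH1L2. Every Arg library of C12orf45 was above every control library, where 17.1% of all genes did not overlap in either direction. With Arg over time C12orf45 had -0.27 (edgeR adjusted p 0.0569), where ALDH1L2 rose. SHMT1 at chr17:18327860-18363563 shares 197 of 7015 exonic bases with SMCR8, and MTHFD1 at chr14:64388031-64463457 shares 178 of 17357 with ZBTB25. SMCR8 had a log2 fold change of 0.30 with Arg at 24 h (edgeR adjusted p 0.0438). Pseudogenes of the enzymes, matched by symbol, had at most 8 counts over all libraries.

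Ratios within a library compare each mitochondrial enzyme with a cytosolic counterpart on the scale per length and need no scaling between libraries. The size of a ratio depends on the gene lengths used, while differences of log2 ratios between groups do not. For MTHFD1 the length used was 9377 bases, against 17357 exonic bases in GENCODE v44. SHMT2 stood above SHMT1 in every library, by 5.228 ± 0.8934 in the 24 h control, 4.795 ± 0.2285 in 24 h Arg, 3.576 ± 0.4093 in the 48 h control, and 3.477 ± 0.2181 in 48 h Arg. The lowest 24 h ratio, 4.234, was above the highest 48 h ratio, 3.86. MTHFD1L to MTHFD1 was 0.6249 ± 0.05314 and 0.6584 ± 0.01365 at 24 h in control and Arg, and 0.5044 ± 0.01522 and 0.5038 ± 0.0435 at 48 h, again with every 24 h library above every 48 h library.

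MTHFD2 to MTHFD1 was the ratio that separated Arg from control. It measured 1.675, 1.534, and 1.602 in the 24 h control and 1.483, 1.227, and 1.355 with Arg, and 1.337, 1.276, and 1.481 in the 48 h control and 1.225, 1.184, and 1.172 with Arg. At both times every Arg library was below every control library, and the mean log2 ratio was lower by a difference of -0.25 at 24 h and -0.19 at 48 h. ALDH1L2 to ALDH1L1, its cytosolic relative, overlapped between Arg and control at both times, with 2.213 ± 0.4713 and 2.836 ± 0.6741 at 24 h and 3.068 ± 0.3456 and 2.768 ± 0.3755 at 48 h. ALDH1L1 itself averaged 6.008 CPM in the 24 h control and 8.176 CPM with Arg. The ratios were tested with a two-sided exact permutation test in 16 comparisons, of which the 8 over time were added after the data were seen. The smallest p that 3 libraries against 3 allow is 0.1, which both MTHFD2 to MTHFD1 comparisons with Arg reached (adjusted p 0.1778), so none of them could pass 0.05.

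**Figure D4:**
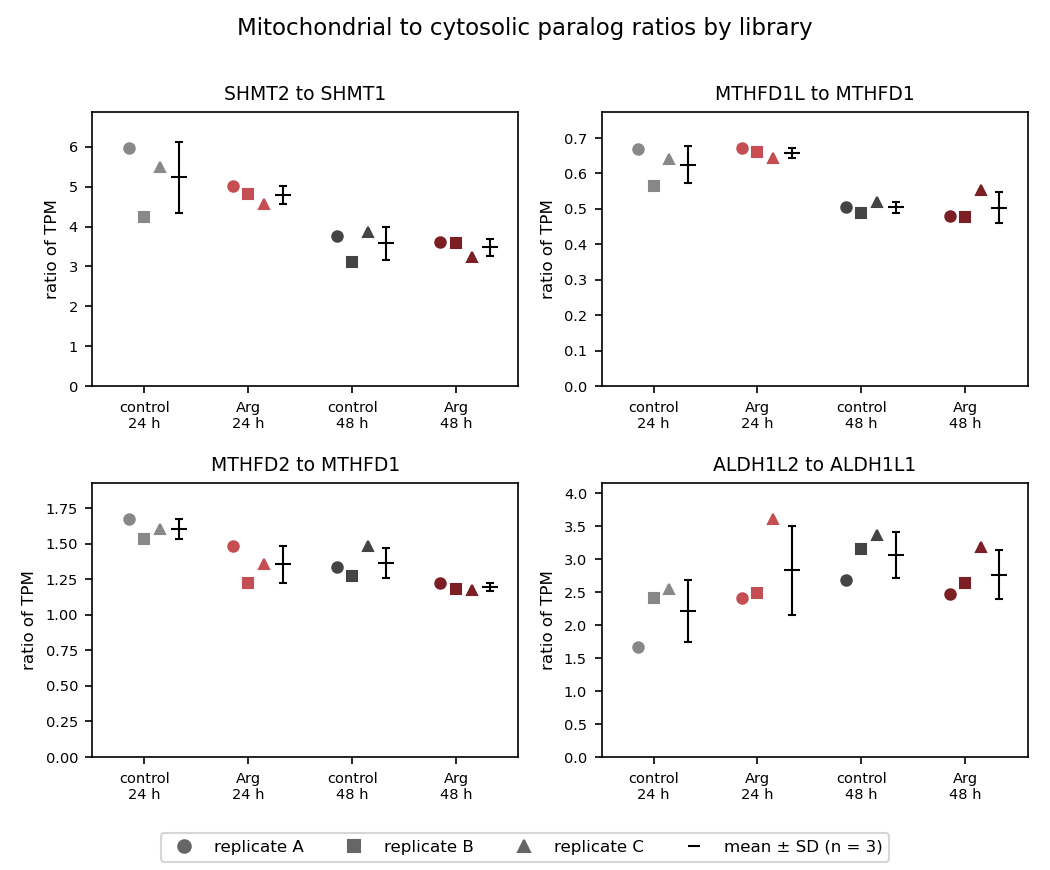
Ratios of mitochondrial to cytosolic enzymes in each library. The y axis of each panel is the ratio of TPM values from 0, the x axis gives the 4 groups, and the bar beside the symbols is the mean with SD (n = 3). SHMT2 to SHMT1 falls from 5.228 to 3.576 in the control and MTHFD2 to MTHFD1 is lower with Arg at both times, at 1.355 against 1.604 at 24 h and 1.194 against 1.365 at 48 h.

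How the enzymes varied together over the 12 libraries is described by Pearson's r of log2 CPM, with no test, since the libraries fall into the 4 groups. PHGDH was most like SHMT1 among the 9 (r = 0.943) and also tracked ALDH1L2 (0.881) and PSAT1 (0.836). MTHFD2 ran against ALDH1L2 (r = -0.892), SHMT1 (-0.863), and PHGDH (-0.831). MTHFD1L was most like SHMT2 (0.7855) and PSPH (0.732). MTHFD1 stood apart, with 0.4707 to ALDH1L2 as its highest value. Among all 15148 genes tested, the gene most like PHGDH was ASAP3 (0.9854), and those most like SHMT1 and ALDH1L2 were DAG1 (0.9887) and CIT (0.9768). For PSAT1 it was ZNF429 (0.9579), for PSPH MRPL35 (0.9533), for SHMT2 MCRS1 (0.9624), for MTHFD1 UTP14A (0.8918), for MTHFD1L GEMIN5 (0.9729), and for MTHFD2 CMPK1 (0.9841).

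The neighbouring steps of the pathway were described by lists, with counts at an adjusted p under 0.05 in edgeR's quasi-likelihood test. The glycine cleavage system breaks glycine down in mitochondria and yields a further one-carbon unit, and 3 of its 4 genes were tested. With Arg, 1 of 3 was called lower at 24 h, where 3.84% of all genes were. At 48 h 0 of 3 were called by edgeR or DESeq2, and 2 passed at an unadjusted p under 0.05, where 13.4% of all genes did. Its decarboxylase GLDC fell with Arg at 24 h, from 47.35, 52.52, and 48.84 CPM in the control to 31.53, 35.59, and 43.7 CPM, with a log2 fold change of -0.42 and an edgeR adjusted p of 0.0291. At 48 h its log2 fold change was -0.25 with an edgeR adjusted p of 0.261. Between 24 and 48 h, 2 of 3 rose and 0 fell in the control (9.9% and 10% of all genes), and 1 rose and 1 fell with Arg (14.3% and 14% of all genes). GLDC rose in the control (0.33, edgeR adjusted p 0.0318) and with Arg (0.51, edgeR adjusted p 0.000942). DLD rose in the control (0.25, edgeR adjusted p 0.0341), and GCSH fell with Arg over time (-0.71, edgeR adjusted p 0.0486). The list had a median log2 fold change of -0.30 with Arg at 24 h, against 0.003 over all genes.

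Carriers and breakdown enzymes of serine and glycine, 13 of 15 tested, had 0 genes called with Arg at either time by edgeR, 4 and 3 at an unadjusted p under 0.05 at 24 and 48 h, where 22.8% and 13.4% of all genes passed, and 1 at each time by DESeq2. The amino acid transporter SLC38A2 had a log2 fold change of -0.23 at 24 h and -0.26 at 48 h (edgeR adjusted p 0.0719 and 0.157). Every Arg library was below every control library at both times, where 26.2% and 17.1% of all genes did not overlap in either direction. Between 24 and 48 h, 2 of 13 rose and 5 fell in the control, against 9.9% and 10% of all genes, and 2 rose and 6 fell with Arg, against 14.3% and 14%. SLC38A2, the neutral amino acid exchanger SLC1A5, and the mitochondrial serine carrier SFXN1 fell in both, SFXN1 by 0.34 on the log2 scale in the control and 0.26 with Arg (edgeR adjusted p 0.00862 and 0.0097).

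Other folate enzymes and carriers had 1 of 14 tested genes called with Arg at 24 h by edgeR, lower, where 3.84% of all genes were. At 48 h edgeR called 0 of 13 and DESeq2 0, and 3 passed at an unadjusted p under 0.05, where 13.4% of all genes did. SLC46A1, the proton-coupled folate transporter, fell at 24 h with a log2 fold change of -0.48 (edgeR adjusted p 0.0452), and its value at 48 h was -0.58 with an edgeR adjusted p of 0.221. GGH, which removes glutamates from folates, had -0.22 and -0.27 (edgeR adjusted p 0.194 and 0.196). Over time, 3 of 13 rose and 3 fell in the control (9.9% and 10% of all genes), and 3 of 14 rose and 4 fell with Arg (14.3% and 14% of all genes). MTHFD2L, a mitochondrial relative of MTHFD2, fell in both, by 0.66 on the log2 scale in the control and 0.50 with Arg (edgeR adjusted p 0.00995 and 0.00846).

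Purine synthesis uses the one-carbon units, and 12 of 13 listed symbols were in the table and tested. The absent symbol, ADSS2, is another name of ADSS, which was tested, so no listed gene was missing. With Arg at 24 h, 1 of 12 was called: PFAS, an enzyme of the early pathway, rose with a log2 fold change of 0.30 (edgeR adjusted p 0.0452), where 2.79% of all genes were called higher. At 48 h 0 of 12 were called by edgeR or DESeq2, and 0 passed at an unadjusted p under 0.05. Between 24 and 48 h, 8 of 12 fell in the control, where 10% of all genes did, and 10 of 12 with Arg, where 14% did. None of the 12 rose in edgeR's test in either condition, and the median log2 fold changes were -0.34 and -0.33 against 0.0125 and 0.00092 over all genes. PFAS fell by 0.55 in the control and 0.77 with Arg on the log2 scale (edgeR adjusted p 0.00689 and 2.42e-07), and ATIC, which performs the last formyl transfer of the route, by 0.54 and 0.50 (edgeR adjusted p 0.00677 and 2.65e-05). IMPDH2 fell with Arg by 0.45 (edgeR adjusted p 4.23e-05) and had -0.25 in the control (edgeR adjusted p 0.109). In the methionine cycle and transsulfuration list, 0 of 9 tested genes were called with Arg at either time by edgeR, with 2 and 0 at an unadjusted p under 0.05 at 24 and 48 h (22.8% and 13.4% of all genes) and 1 and 0 by DESeq2. Over time, 2 of 9 fell in the control (10% of all genes), and 1 rose and 2 fell with Arg (14.3% and 14% of all genes). MTAP fell in the control (-0.56, edgeR adjusted p 0.00867), AHCY fell with Arg (-0.45, edgeR adjusted p 2.74e-05), and CTH rose with Arg (0.58, edgeR adjusted p 0.0324).

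Of 22 genes of the ATF4 amino acid response, 21 were tested, and with Arg at 24 h 3 rose and 1 fell, against 2.79% and 3.84% of all genes. The glycoprotein STC2 rose by a log2 fold change of 0.62, the cystine transporter SLC7A11 by 0.57, and the transcription factor ATF5 by 0.38 (edgeR adjusted p 0.00203, 0.00474, and 0.0168), and ATF3 fell by 1.39 on the log2 scale (edgeR adjusted p 0.000464). At 48 h 0 of 21 were called by edgeR, 7 passed at an unadjusted p under 0.05, where 13.4% of all genes did, and DESeq2 called 1. SLC7A11 and ATF5 then had log2 fold changes of 0.47 and 0.36 (edgeR adjusted p 0.157 and 0.177), and ATF3 had -0.029 (edgeR adjusted p 0.956). Over time 3 of 21 rose and 3 fell in the control (9.9% and 10% of all genes), and 4 rose and 4 fell with Arg (14.3% and 14%). STC2 rose in the control (0.50, edgeR adjusted p 0.00758), while ATF5 fell in both (-0.51 and -0.54, edgeR adjusted p 0.00614 and 0.000144). ATF3 fell over time in the control (-0.93, edgeR adjusted p 0.0163) and rose with Arg (0.43, edgeR adjusted p 0.0347). Of 8 proliferation markers, 2 rose with Arg at 24 h, MKI67 with a log2 fold change of 0.53 and TOP2A with 0.37 (edgeR adjusted p 0.0106 and 0.00696), where 2.79% of all genes were called higher. At that time 6 of 8 passed at an unadjusted p under 0.05, where 22.8% of all genes did, and DESeq2 called 3. At 48 h 0 of 8 were called by edgeR or DESeq2, with 0 at an unadjusted p under 0.05. Over time 2 rose and 2 fell in the control (9.9% and 10% of all genes), and 0 rose and 5 fell with Arg (14.3% and 14%). The part of proliferation in the values of the 9 enzymes was not tested.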

How the data were processed

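Poly(A) RNA of TIGK cells was sequenced in 12 libraries, 3 in each of 4 groups. The authors filtered the reads with fastp, mapped them to GRCh38/hg38 with STAR, counted them per gene with featureCounts, and deposited these raw counts without normalization, with gene coordinates and lengths. Tool versions, the annotation release, and the strand setting are not given in the sources used here. Every count column belonged to a sample of the series, so the number of sample columns not used was 0.

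Groups were taken from the labels. Comparisons between pairs of groups (Arg against control at each time, 48 h against 24 h in control and in Arg) were made with edgeR 4.0.16 in R 4.3.3 (TMM, filterByExpr, quasi-likelihood test), and the interaction of Arg and time was fitted to all 12 libraries. Benjamini-Hochberg adjustment ran across all genes tested in a comparison, and a gene was called at an adjusted p under 0.05. CPM was scaled by TMM over the 12 libraries. TPM was computed from the counts and the deposited gene lengths. Correlations used log2(CPM + 0.5). The model fits were checked on simulated counts with known changes. The interaction fit recovered fewer of the large changes than the fits of 2 groups did, and its pass mark was lowered after that was seen, so a missed interaction is weaker evidence than a missed difference between groups. With libraries of 16542243 to 19040964 counts, the least expressed enzyme had between 134 and 383 counts per library, which limits its precision through counting error and the spread of 3 replicates.

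The enzymes and the lists were chosen with earlier results of these data known. All 9 enzymes are named in every comparison, and of each list at most 4 genes with the smallest p in either Arg comparison, and for each enzyme the gene with the highest r. As alternatives, the comparisons were rerun with DESeq2 1.42.0, with its size factors in place of TMM, with no low-count filter, with a minimum of 10 counts per library, with the replicate letter as a block, with the 12 libraries fitted jointly, and without each library in turn.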

Additional observations from a re-analysis of the deposited data

How the results depend on the processing

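The call of ALDH1L2 with Arg at 24 h held in 6 of 6 alternatives (log2 fold change 0.79 to 0.80, adjusted p 0.000156 to 0.00516) and in 6 of 6 fits without 1 library (0.72 to 0.86, up to 0.0343). The number of enzymes called over time in the control, 5 in all, lay between 2 and 6 without 1 library and between 5 and 7 in the other alternatives. The number called with Arg over time, 6, lay between 4 and 6 without 1 library. The number of genes called in the whole table varied more. With Arg at 48 h it was 17 with edgeR, 185 with DESeq2, 573 without the filter on low counts, and 184 with the replicate block. It was 41 with the 12 libraries fitted jointly, and 6 to 2365 without 1 library. At 24 h it was 947, and 359, 1529, or 438 without control replicate A, B, or C and 402 or 381 without Arg replicate B or C, so the shares of all genes called there move with single libraries. Over time in the control it was 2882, and 828 or 998 without 24 h replicate A or C and 1832 without 48 h replicate A. Over time with Arg it was 4072, and 2938 to 3669 without 1 library. For the interaction it was 2, with 19 by DESeq2, 88 without the filter, and 0 to 46 without 1 library. Values near 0 changed sign. MTHFD1 over time in the control, 0.0043, was -0.0037 with DESeq2 and -0.0050 without the filter, and its interaction, 0.0010, was -0.0022 with at least 10 counts in every library. The cause was not tested.

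Without 1 library, the log2 fold change at 24 h of SHMT2 ranged from -0.016 to 0.10. At 48 h the ranges were -0.051 to 0.048 for PSAT1, -0.099 to 0.0042 for PSPH, -0.031 to 0.032 for SHMT1, and -0.12 to 0.023 for SHMT2. For MTHFD1 over time they were -0.013 to 0.023 in the control and -0.0091 to 0.019 with Arg, and for the interaction -0.024 to 0.022. For the interaction of MTHFD1L the range was -0.15 to 0.011, and for that of MTHFD2 -0.013 to 0.13. The ratios SHMT2 to SHMT1 and MTHFD1L to MTHFD1 at 48 h ranged from -0.13 to 0.022 and from -0.075 to 0.034 on the log2 scale.

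The sources do not say whether the letters A, B, and C pair the libraries. The correlation of same-letter deviations lay between -0.0913 and 0.188 and was not above 0.1 for every letter in any comparison. These correlations run over all genes and cannot show whether part of the genes share an effect by letter. With the replicate block, 7 enzymes were called over time in the control, with SHMT2 at an adjusted p of 0.0382 and MTHFD2 at 0.0129 by edgeR. In that blocked fit SHMT1 over time with Arg was at 0.0556, 5 enzymes were called there, and the genes called over time in the control went from 2882 to 4044. The depth limits ALDH1L2 most, with at most 383 counts in a library.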
